A study of Mus musculus with 656 samples.

Results

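The 37 genes described here encode the enzymes and transporters of glycolysis and a group of genes known to respond to low oxygen, and they were chosen by gene symbol. All 37 were found among the 22070 genes counted in mouse 3T3 fibroblasts, and 34 of them had enough counts to enter the tests, which covered 10766 genes. Aldoc, Slc16a3 and Ankrd37 were left out of the tests because they had only 62, 299 and 734 counts summed over all 164 libraries. Of the 34 tested genes, 31 changed in at least 1 of the 20 tests of a cytokine or of 100 µM inhibitor described below, and Hk1, Pfkl and Kdm3a in none.

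3T3 is an established mouse embryonic fibroblast line, and all groups were grown in glucose-containing medium with bovine calf serum. For 1 h before the stimulus the medium held 0, 25, 50 or 100 µM of SC-514, a small molecule that inhibits IKKβ. The stimulus was IL-1β (1 ng/ml) or TNF-α (10 ng/ml), and RNA was taken 15, 30, 60, 120 or 360 min later. Each of these 40 groups, and 1 unstimulated group labelled with 0 µM SC-514 and time 0, held 4 libraries of 3′-end reads (TagSeq), and the labels do not say whether the 4 were separate cultures. P-values therefore cover the spread between libraries, which may be technical. The labels name no group with SC-514 alone, no unstimulated group at a later time, no low-oxygen condition and no vehicle for the 0 µM groups. They also give the 1 h pretreatment for the stimulated groups, 0 µM included, but none for the unstimulated group. In comparisons with that group, cytokine, pretreatment and elapsed time cannot be told apart. Stimuli are given as the stimulus label states them, because titles and descriptions of the samples use the same library prefix for opposite cytokines. The IL-1β and TNF-α libraries also carry different prefixes, so that cytokine and library set cannot be told apart.

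Glycolysis splits glucose into pyruvate, and lactate dehydrogenase then turns pyruvate into lactate that leaves the cell through monocarboxylate transporters. Many genes of the pathway, and others for blood vessel growth, collagen hydroxylation and the turnover of mitochondria, are targets of hypoxia-inducible factor 1 (HIF-1), whose α subunit is made continuously and is marked for destruction by prolyl hydroxylases when oxygen is present. IL-1β and TNF-α signal through IKKβ, which releases the transcription factor NF-κB, and Hif1a is among the genes that NF-κB is known to activate.

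Sequences upstream of 4 of the genes described below are shown because HIF-1 binds DNA through short core letters. Each is the stretch from 250 to 31 bases before an annotated RefSeq start on GRCm38.p6, written 5′ to 3′ on the gene's own strand. Capitals mark the HIF core, searched as ACGTG or GCGTG on both strands, or, in Vegfa, the κB consensus to which NF-κB binds. The stretches are chr7:110627407-110627626 (plus strand) for Adm, chrX:106186850-106187069 (plus strand) for Pgk1, chr4:119108495-119108714 (plus strand) for Slc2a1 and chr17:46032408-46032627 (minus strand) for Vegfa.
Adm: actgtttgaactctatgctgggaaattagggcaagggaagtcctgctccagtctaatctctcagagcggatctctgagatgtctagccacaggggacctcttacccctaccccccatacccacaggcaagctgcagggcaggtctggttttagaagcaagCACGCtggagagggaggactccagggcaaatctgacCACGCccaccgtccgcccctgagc
Pgk1: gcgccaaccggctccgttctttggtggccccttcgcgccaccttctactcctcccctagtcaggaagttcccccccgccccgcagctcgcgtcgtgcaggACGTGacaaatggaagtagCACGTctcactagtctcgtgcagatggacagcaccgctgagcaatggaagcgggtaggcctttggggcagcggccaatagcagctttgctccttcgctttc
Slc2a1: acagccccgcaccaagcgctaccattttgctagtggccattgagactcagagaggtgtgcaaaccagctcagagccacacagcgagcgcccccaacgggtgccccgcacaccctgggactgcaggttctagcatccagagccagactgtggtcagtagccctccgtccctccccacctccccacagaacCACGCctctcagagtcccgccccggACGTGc
Vegfa: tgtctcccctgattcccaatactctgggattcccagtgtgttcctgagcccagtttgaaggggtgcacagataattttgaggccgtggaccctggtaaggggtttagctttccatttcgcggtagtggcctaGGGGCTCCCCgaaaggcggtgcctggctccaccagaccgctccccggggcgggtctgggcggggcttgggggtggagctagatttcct

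Adm had HIF cores 90 and 54 bases before the start, Pgk1 150 and 131 bases before it, and Slc2a1 61 and 36 bases before it. The Vegfa window had no HIF core and a κB match 118 bases before the start, while the window of another Vegfa start, not shown, had 2 HIF cores. Windows of 250 bases were found for 35 of the 37 genes, Bnip3l and Ndrg1 being without one. Of their 53 windows, 41 held a HIF core (77.4%), against 38.6% of all 32851 windows of that length. At least 2 cores stood in 47.2% of the genes' windows and in 16.7% of all. Because both strands were searched, a single CACGTG counts as 2 cores, as in 1 window of Pfkm. Windows of different starts of 1 gene were counted separately even where they overlap, as in Eno1. The genes' windows were also richer in G and C, with a median of 61.6% against 52.4%. The κB consensus was in 1 of the 53 windows (1.89%, against 3.9% of all). These matches describe the letters only.

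Library totals were 928906 to 2469454 counts, except for 3839 in TNF-α 50 µM 120 min number 1 and 12191 in IL-1β 50 µM 30 min number 1. Both shallow libraries belong to groups that enter only the tests of 50 µM across all times. Depth also differed between groups compared. At 360 min of TNF-α totals were 1030538 to 1275752 at 0 µM and 1846457 to 2020867 at 100 µM SC-514. With IL-1β they were 1263195 to 1302126 and 1061086 to 1209143. The part of depth in the results was not tested. Values below are read counts scaled with edgeR's TMM factors to a common library size (CPM), given for libraries 1, 2, 3 and 4 of a group in that order. Because 3′ reads were counted per gene, levels are compared between groups and not between genes. Fibroblast markers were present as labelled, with 10 of 11 at a mean of at least 5 CPM and Lum at 0.02 CPM, and their summed level was 5903 to 9079 CPM over the groups. Summed markers of macrophages and leukocytes were at 19.5 to 46.0 CPM and those of epithelium at 0 to 1.3 CPM. Those of adipocytes were at 78.5 to 203.7 CPM, mostly from Lpl, at a mean of 138.4 CPM, with Adipoq at 0.02 CPM. Nfkbia, the inhibitor of NF-κB that its own target induces, was at 130.5 to 152.4 CPM unstimulated, 1538 to 1651 CPM after 60 min of IL-1β and 2061 to 2346 CPM after 60 min of TNF-α, and with 100 µM SC-514 at 997.8 to 1382 and 1755 to 1935 CPM. In these bulk samples, fewer cells and less RNA per cell cannot be told apart.

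The first comparison set each cytokine without SC-514 against the unstimulated group. Under both cytokines a subset of the hypoxia-response genes was higher, led by Adm, Ndrg1 and Vegfa, together with the entry steps of glycolysis, Slc2a1 and Hk2. The enzymes between triose phosphates and pyruvate rose in no comparison. Changed genes are those with a Benjamini-Hochberg adjusted p under 0.05 over all 10766 genes in edgeR's quasi-likelihood test, and ± after a log2 change is its SE.

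Adm, which encodes the vasodilating peptide adrenomedullin, was at 2.17, 2.59, 7.58 and 5.64 CPM in the unstimulated libraries. At 60 min it was at 63.8, 50.5, 55.9 and 45.4 CPM with IL-1β and at 65.1, 63.9, 54.6 and 76.8 CPM with TNF-α. Every stimulated library lay far above every unstimulated one. The log2 changes were 3.58 ± 0.28 for IL-1β (edgeR adjusted p = 4.83e-23) and 3.85 ± 0.28 for TNF-α (edgeR adjusted p = 4.77e-26). At 360 min the IL-1β libraries were still at 19.9, 20.6, 23.4 and 30.1 CPM, above the whole unstimulated group. The TNF-α libraries were then at 5.64, 2.01, 5.83 and 15.3 CPM, overlapped with the unstimulated group and did not pass the test.

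Ndrg1, a stress-responsive gene that is strongly induced by hypoxia, was at 93.1, 92.5, 100.2 and 71.0 CPM unstimulated. With TNF-α it was at 544.8, 452.7, 447.7 and 424.6 CPM at 120 min and back at 136.2, 129.9, 146.6 and 127.9 CPM at 360 min. With IL-1β it was at 273.7, 263.0, 240.1 and 266.0 CPM at 120 min and at 325.8, 342.2, 337.2 and 295.9 CPM at 360 min. The TNF-α group thus stood highest at 120 min and the IL-1β group at 360 min, and none of these libraries overlapped with the unstimulated ones. The log2 change was 2.39 ± 0.14 at 120 min of TNF-α (edgeR adjusted p = 1.54e-32) and 1.87 ± 0.14 at 360 min of IL-1β (edgeR adjusted p = 2.86e-23). It was 0.60 ± 0.15 at 360 min of TNF-α (edgeR adjusted p = 0.00594, and 0.069 without the libraries numbered 4).

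Vegfa, the main growth factor for blood vessels, was at 230.2, 222.1, 237.5 and 216.1 CPM unstimulated. At 120 min it was at 490.9, 581.3, 460.9 and 469.3 CPM with IL-1β and at 627.2, 527.4, 667.7 and 571.3 CPM with TNF-α. All 8 libraries were above the unstimulated range, with log2 changes of 1.14 ± 0.13 (edgeR adjusted p = 4.2e-13) and 1.40 ± 0.13 (edgeR adjusted p = 7.46e-18). Ddit4, an inhibitor of mTORC1 that responds to stress, was at 59.2, 39.8, 46.3 and 49.2 CPM unstimulated and at 144.8, 129.3, 124.0 and 140.6 CPM after 60 min of TNF-α, again without overlap. Its log2 change was 1.46 ± 0.19 (edgeR adjusted p = 1.03e-09), and 0.82 at 60 min of IL-1β (edgeR adjusted p = 0.00429, and 0.0955 when the libraries numbered 3 were left out). It changed at no other time.

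**Figure D1:**
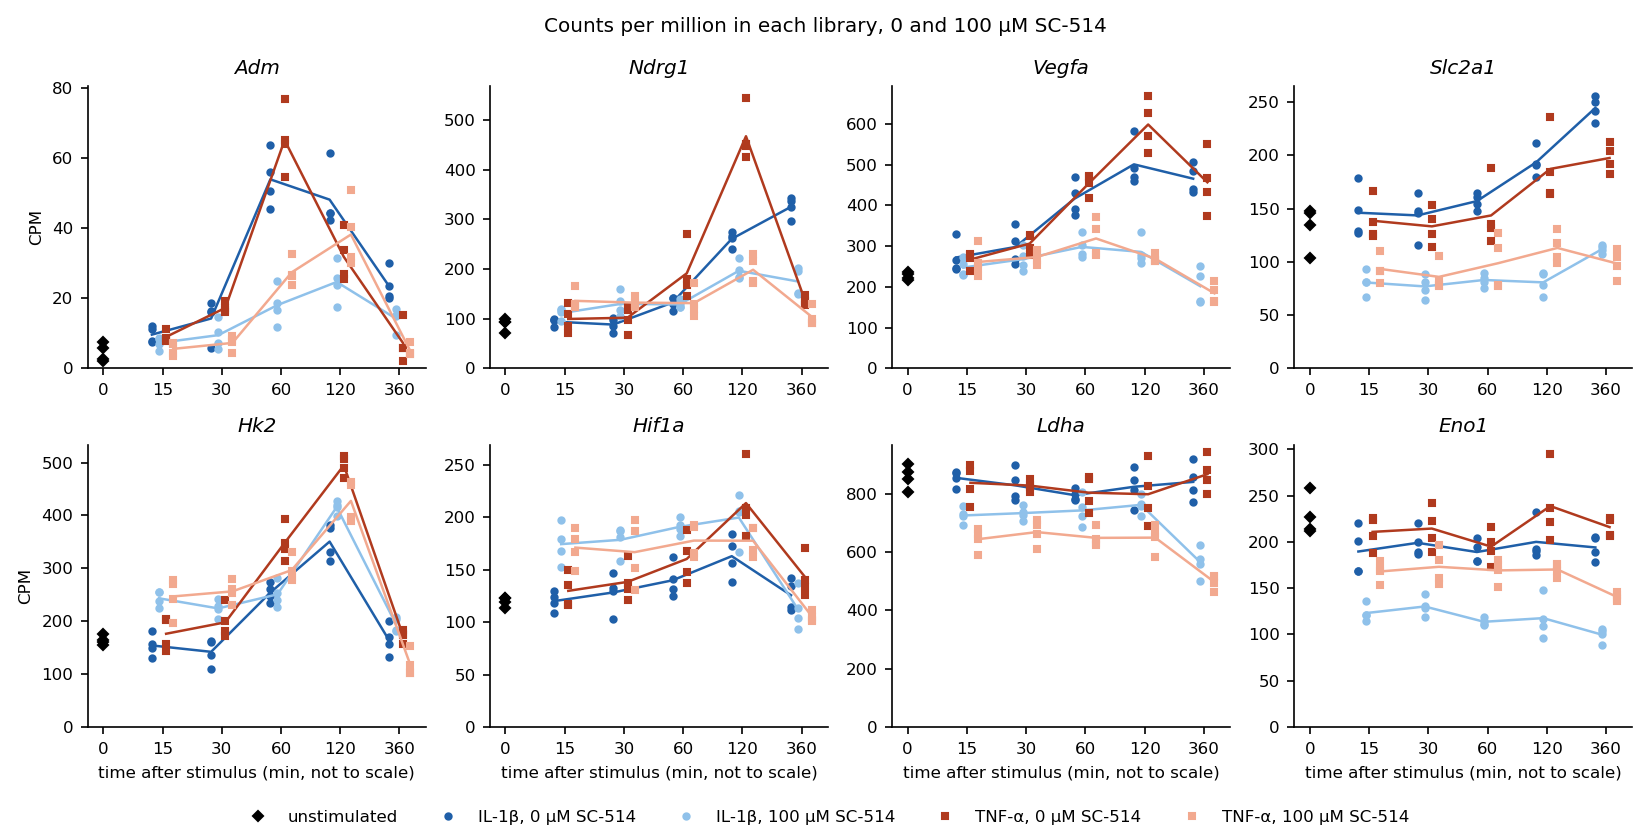
CPM of 8 genes in each library against time after stimulus in minutes (axis not to scale); circles are IL-1β, squares TNF-α, dark colours 0 µM and light colours 100 µM SC-514, diamonds the unstimulated libraries, and lines join the means of 4 libraries. Adm, Ndrg1, Vegfa and Hk2 peak between 60 and 360 min at 0 µM, Ldha and Eno1 stay near their unstimulated level at 0 µM, and Slc2a1 lies lower at 100 µM at every time.

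Among the genes that bring glucose in and trap it, Slc2a1, the glucose transporter GLUT1, was at 103.9, 134.8, 147.4 and 145.9 CPM unstimulated. After 360 min it was at 250.4, 241.6, 230.9 and 255.7 CPM with IL-1β and at 191.8, 212.5, 203.9 and 182.3 CPM with TNF-α, in both cases entirely above the unstimulated group. In log2 terms the changes were 0.88 ± 0.12 (edgeR adjusted p = 2.81e-09) and 0.57 ± 0.13 (edgeR adjusted p = 0.000908). Hk2, the inducible hexokinase, was at 160.9, 164.2, 175.2 and 155.6 CPM unstimulated. At 120 min it was at 381.3, 377.0, 313.4 and 330.8 CPM with IL-1β and at 470.6, 489.0, 506.5 and 513.0 CPM with TNF-α, so that both cytokine groups stood apart from the unstimulated group. Its log2 changes were 1.10 ± 0.11 (edgeR adjusted p = 7.97e-16) and 1.59 ± 0.11 (edgeR adjusted p = 6.66e-27). By 360 min Hk2 did not differ detectably from the unstimulated group under either cytokine. Hk1, the constitutive hexokinase, did not pass the test at any time.

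Of the 6 genes for the sugar phosphate steps, Pfkfb3, whose product makes the activator of phosphofructokinase, was at 17.3, 11.2, 16.0 and 6.45 CPM unstimulated and at 35.2, 46.7, 46.0 and 46.5 CPM after 120 min of TNF-α. All 4 treated libraries were above the unstimulated ones, with a log2 change of 1.75 ± 0.23 (edgeR adjusted p = 9.99e-11). With IL-1β Pfkfb3 passed at 120 min alone, at a mean of 23.2 against 12.7 CPM with overlapping libraries (0.84 ± 0.25, edgeR adjusted p = 0.0104), and this call was lost with DESeq2 and without the libraries numbered 1 (adjusted p up to 0.0641). Pfkm, the muscle phosphofructokinase, was lower at 360 min of IL-1β, at a mean of 24.1 against 43.5 CPM (log2 change −0.85), and of TNF-α, at 30.3 CPM (−0.52). Pfkm overlaps Senp1 on the other strand, as Pfkp, Tpi1 and Gapdh overlap Pitrm1, Spsb2 and Iffo1, and whether counting used strand is not given in the sources used here, so reads of such pairs may be mixed. Gpi1, Pfkl, Pfkp and Aldoa did not pass the test under either cytokine.

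The 7 genes from triose phosphate to pyruvate stayed close to the unstimulated level. Gapdh, the enzyme of the oxidation step and a common reference gene, was at 250.4, 342.3, 274.5 and 285.4 CPM unstimulated and at 276.4, 285.0, 273.9 and 327.4 CPM after 360 min of TNF-α, inside the unstimulated range. Eno2, the neuronal enolase, was lower at 360 min of both cytokines, with means of 17.3 (IL-1β) and 18.3 (TNF-α) against 30.7 CPM. Gapdh and Pgam1 were slightly lower at 120 min of TNF-α, Gapdh by a log2 change of −0.25 (edgeR adjusted p = 0.0253). The Gapdh call was lost when the libraries numbered 1, 2 or 3 were left out, with an adjusted p of up to 0.211, and the Pgam1 call when those numbered 2, 3 or 4 were, with up to 0.167. Ldha, the main lactate dehydrogenase subunit of fibroblasts, was at 804.6, 901.5, 850.6 and 874.9 CPM unstimulated, and its log2 change was between −0.11 and 0.02 in all 10 comparisons. Slc16a1, the lactate transporter MCT1, rose only at 360 min of TNF-α, from a mean of 100.8 to 147.5 CPM (log2 change 0.55).

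Hif1a itself, the regulated subunit of HIF-1, was at 113.3, 122.7, 123.0 and 119.3 CPM unstimulated. At 120 min it was at 184.3, 172.8, 156.3 and 138.5 CPM with IL-1β and at 260.8, 202.5, 182.5 and 208.7 CPM with TNF-α, and neither group overlapped with the unstimulated one. The log2 changes were 0.45 (edgeR adjusted p = 0.00154) and 0.84 ± 0.11 (edgeR adjusted p = 1.12e-10). Egln3, a prolyl hydroxylase that is itself induced by HIF, rose from a mean of 11.2 to 24.5 CPM at 120 min of IL-1β (log2 change 1.12 ± 0.25) and to 23.6 CPM at 60 min of TNF-α (1.09). Egln1, the main oxygen-sensing hydroxylase, did not pass the test. The transcript counts say nothing of HIF-1α protein, which is regulated by its breakdown.

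The counts of changed genes followed the same course. At 15 min 0 of the 34 genes were higher or lower under either cytokine, where 0.121% of all tested genes were higher and 0.0464% lower with IL-1β, and 0.0836% and 0.102% with TNF-α. These counts of 0 from edgeR were also 0 with DESeq2, and at an unadjusted p under 0.05 edgeR gave 5 members under IL-1β and 2 under TNF-α. At 30 min 1 gene, Adm, was higher under each cytokine, beside 0.725% of all genes higher and 0.232% lower with IL-1β and 0.557% and 0.102% with TNF-α. The IL-1β call of Adm at 30 min was lost without the libraries numbered 2 (adjusted p = 0.102). At 60 min 5 genes were higher with IL-1β (2.74% of all higher, 0.622% lower) and 8 with TNF-α (4.15% and 1.25%), and 0 were lower by edgeR and by DESeq2 (2 and 4 at an unadjusted p under 0.05). At 120 min 8 were higher and 0 lower with IL-1β (8.17% and 4.36% of all), and 9 higher and 2 lower with TNF-α (9.14% and 5.11%). At 360 min 6 were higher and 3 lower with IL-1β (12.3% and 9.4% of all), and 5 higher and 2 lower with TNF-α (3.62% and 1.8%).

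The 5 TNF-α genes higher at 360 min were Ndrg1, Vegfa, Slc2a1, Slc16a1 and Pfkfb3, of which Pfkfb3 was lost without the libraries numbered 2 or 4 (adjusted p up to 0.145) and Ndrg1 without those numbered 4, as given above. The count of 7 changed genes there was 4 without the libraries numbered 2 or 4. All 10 comparisons share the unstimulated group. The median log2 change of the 34 genes lay between −0.04 and 0.09, and that of all genes between −0.02 and 0.01. With DESeq2's size factors (RLE) in place of TMM, the share of higher genes among all calls moved from 56.6% to 42.7% at 360 min of IL-1β, from 76.8% to 58.7% at 60 min, from 64.1% to 50.8% at 120 min and from 66.8% to 49.2% at 360 min of TNF-α. The members' split, higher against lower, was then 6 and 5, 7 and 1, 9 and 5, and 5 and 2. The earlier IL-1β shares moved from 72.2% to 42.9% at 15 min, from 75.7% to 56.5% at 30 min and from 65.2% to 54.6% at 120 min, and that of TNF-α at 15 min from 45.0% to 24.0%, with 0, 1, 8 and 0 members higher and 0, 0, 1 and 0 lower.

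The second comparison asked what 100 µM SC-514 does to these genes under each cytokine. Under both cytokines most of the changed genes were lower at 360 min, and these included the glucose transporter Slc2a1, the enolase Eno1, the lactate dehydrogenase Ldha and Vegfa. Other enzymes of lower glycolysis and Ndrg1 were lower as well, with less stable calls. With DESeq2 the IL-1β calls of Pgk1, Pgam1 and Pkm and the TNF-α call of Ndrg1 were lost. At earlier times the genes were divided. Wherever they passed before 360 min, Slc2a1, Eno1, Ldha and P4ha2 were lower and Hk2, Pfkm and Ldhb higher, while Hif1a was higher in 5 comparisons and lower at 120 min of TNF-α.

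**Figure D2:**
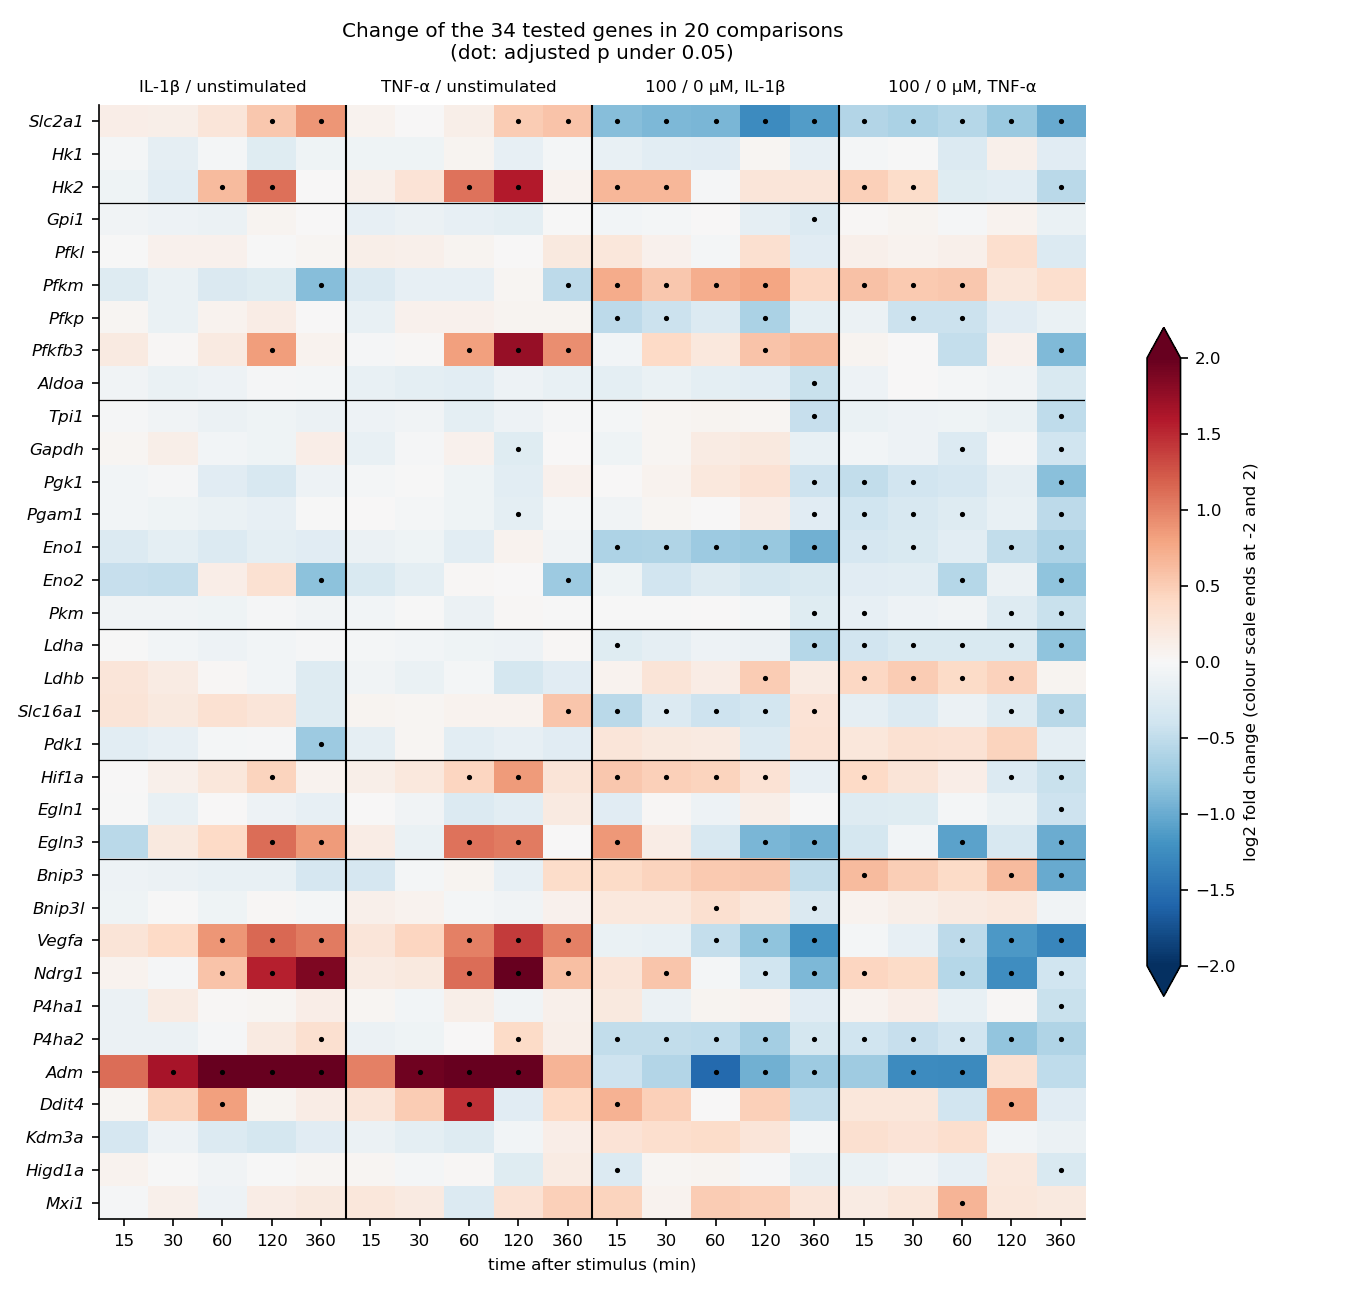
Log2 change of the 34 tested genes (rows, grouped by role) in 20 comparisons (columns, time in minutes), from blue for lower to red for higher with the scale ending at −2 and 2; a dot marks an adjusted p under 0.05. The right-hand columns, 100 against 0 µM SC-514, show Slc2a1 and P4ha2 lower at all times and most rows lower at 360 min, where 15 (IL-1β) and 21 (TNF-α) rows carry a dot for a lower level.

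Slc2a1 was the most regular member. After 15 min of IL-1β it was at 129.4, 127.5, 148.9 and 178.9 CPM without SC-514 and at 93.7, 80.8, 81.5 and 66.6 CPM with 100 µM. After 360 min the 100 µM libraries were at 107.8, 114.1, 116.0 and 110.7 CPM with IL-1β and at 112.0, 96.0, 104.5 and 81.6 CPM with TNF-α. In each case all 4 were below all 4 libraries at 0 µM, whose 360 min values are given above, and at 360 min they overlapped with the unstimulated group. The log2 change at 360 min was −1.12 ± 0.13 with IL-1β (edgeR adjusted p = 8.39e-13) and −1.005 ± 0.13 with TNF-α (edgeR adjusted p = 3.46e-11). It lay between −1.26 and −0.57 over the 10 comparisons and passed the test in all 10.

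P4ha2, a collagen prolyl hydroxylase subunit, also passed in all 10, with log2 changes between −0.78 and −0.36. After 120 min of TNF-α it was at 192.6, 227.4, 168.0 and 186.8 CPM without SC-514 and at 120.4, 117.5, 108.5 and 103.8 CPM with 100 µM, with no overlap (log2 change −0.78 ± 0.09, edgeR adjusted p = 2.83e-13). The 100 µM libraries were also below the unstimulated ones, which were at 148.7, 152.1, 149.1 and 142.7 CPM. The call at 60 min of TNF-α was lost without the libraries numbered 4 (adjusted p = 0.0665), and that at 360 min of IL-1β with DESeq2 (DESeq2 adjusted p = 0.054). P4ha1, the other catalytic subunit listed, was lower only at 360 min of TNF-α (log2 change −0.45).

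In lower glycolysis, Eno1, the ubiquitous enolase, was lower in 9 of the 10 comparisons. After 360 min of IL-1β it was at 204.0, 178.1, 189.1 and 204.8 CPM at 0 µM and at 100.0, 106.2, 88.3 and 104.1 CPM at 100 µM. After 360 min of TNF-α it was at 206.3, 223.6, 207.8 and 226.2 CPM at 0 µM and at 146.1, 142.7, 135.9 and 138.2 CPM at 100 µM. Neither pair of groups overlapped, and the unstimulated libraries, at 227.3, 258.4, 212.2 and 213.7 CPM, were also above both 100 µM groups. The log2 changes were −0.96 ± 0.10 (edgeR adjusted p = 9.01e-15) and −0.62 ± 0.09 (edgeR adjusted p = 1.45e-08). Under IL-1β the decrease was present at 15 min, where the mean was 123.0 against 189.6 CPM (log2 change −0.62 ± 0.10, edgeR adjusted p = 1.13e-07). The TNF-α call at 30 min was lost with DESeq2 and without the libraries numbered 2 or 3 (adjusted p up to 0.0707).

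Of the other 6 enzymes of this stretch 4 were lower at 360 min of IL-1β and all 6 at 360 min of TNF-α. At 360 min Pgk1, which makes the first ATP of the pathway, was at 73.3, 73.5, 49.5 and 77.3 CPM at 0 µM of TNF-α and at 40.2, 42.9, 32.0 and 39.1 CPM at 100 µM, with no overlap (log2 change −0.83 ± 0.14, edgeR adjusted p = 5.33e-07). Pgam1, phosphoglycerate mutase, was at 703.4, 717.1, 642.9 and 674.9 CPM and fell to 449.4, 477.9, 456.5 and 526.2 CPM (−0.52 ± 0.06, edgeR adjusted p = 4.23e-12). Pkm, pyruvate kinase, was at 1453, 1549, 1460 and 1485 CPM and fell to 1127, 1109, 1059 and 1077 CPM (−0.44 ± 0.06, edgeR adjusted p = 1.07e-10). For all of these the 100 µM libraries lay below every 0 µM library.

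Before 360 min none of these 6 passed with IL-1β, while with TNF-α 5 of them did at some time. Pgam1 was lower at 15, 30 and 60 min of TNF-α, by log2 changes of −0.40, −0.32 and −0.26, and at 15 min its mean was 537.4 against 709.8 CPM with no overlap (edgeR adjusted p = 9.56e-08). Pgk1 was lower at 15 and 30 min (−0.49 and −0.39), Pkm at 15 and 120 min (−0.16 and −0.26), and Gapdh and Eno2 at 60 min (−0.27 and −0.57). The Pgk1 call at 30 min and the Pkm call at 15 min were lost whichever library number was left out (adjusted p up to 0.213 and 0.184), the Pgk1 call at 15 min without those numbered 1 or 4 and the Gapdh call without those numbered 2 (0.127). With DESeq2 all 4 of these calls were lost.

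At 360 min Gapdh was at 235.1, 215.8, 198.3 and 232.5 CPM at 100 µM of TNF-α, below all 4 libraries at 0 µM (log2 change −0.40 ± 0.08, edgeR adjusted p = 2.42e-05). With IL-1β at 360 min Gapdh was at 295.2, 302.6, 345.5 and 317.6 CPM at 0 µM and at 279.2, 290.5, 284.2 and 279.1 CPM at 100 µM, also without overlap, but it did not pass the test. Tpi1, triose phosphate isomerase, was lower under both cytokines, by log2 changes of −0.45 and −0.51. With IL-1β the decreases of Pgam1 (−0.22, edgeR adjusted p = 0.00374), Pkm (−0.24, 0.00052) and Pgk1 (−0.42, 0.0263) were smaller in size than those with TNF-α. Leaving out number 1 of IL-1β 100 µM, a library with 15303 detected genes where the group's lowest had 13170, moved Pgk1 to −0.30 (adjusted p = 0.168). With the libraries numbered 1 left out of every group, with RLE factors and with DESeq2 Pgam1 did not pass either (adjusted p of up to 0.0925). Pgk1 and Pkm were also lost with DESeq2 (DESeq2 adjusted p = 0.0626 for Pkm).

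Ldha was lower in 7 of the 10 comparisons. At 360 min of IL-1β it was at 920.3, 771.0, 813.2 and 858.3 CPM at 0 µM and at 501.0, 559.9, 576.0 and 624.5 CPM at 100 µM. With TNF-α it was at 879.9, 943.7, 798.3 and 846.7 CPM at 0 µM and at 517.1, 493.5, 462.1 and 515.4 CPM at 100 µM. All 8 libraries at 100 µM were below all stimulated libraries without SC-514 and below the unstimulated ones. In log2 terms the changes were −0.57 ± 0.07 (edgeR adjusted p = 2.68e-11) and −0.80 ± 0.07 (edgeR adjusted p = 1.09e-19). Ldhb, the subunit typical of heart, was higher in 5 comparisons up to 120 min, with log2 changes between 0.38 and 0.50. Slc16a1 was lower in 6 comparisons and higher in 1, at 360 min of IL-1β, where it was at a mean of 102.3 against 84.6 CPM (log2 change 0.28, edgeR adjusted p = 0.0452).

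Of the hypoxia-response genes higher under the cytokines, Adm, Ndrg1 and Vegfa stood lower with SC-514 at the times of their peaks. Ddit4 passed in neither comparison at 60 min. At 60 min Adm was at 24.9, 16.6, 18.7 and 11.9 CPM with IL-1β and 100 µM, and at 23.7, 32.7, 26.4 and 26.6 CPM with TNF-α and 100 µM. Both groups lay below their 0 µM libraries and above the unstimulated ones. In log2 terms the changes were −1.55 ± 0.21 (edgeR adjusted p = 6.41e-10) and −1.27 ± 0.19 (edgeR adjusted p = 1.64e-08). At 360 min of IL-1β the log2 change of Adm was −0.73 (edgeR adjusted p = 0.0292), and −0.58 without number 1 of the 100 µM group (adjusted p = 0.142). It was also lost without the libraries numbered 3 or 4 of every group.

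At 120 min of TNF-α Ndrg1 was at 230.6, 216.3, 176.1 and 170.8 CPM with 100 µM, below every 0 µM library and above every unstimulated one (log2 change −1.25 ± 0.12, edgeR adjusted p = 1.71e-16). At 360 min of IL-1β it was at 148.7, 151.8, 202.7 and 195.9 CPM with 100 µM, likewise between both groups (−0.90 ± 0.13, edgeR adjusted p = 8.16e-09). Before its peak it was higher with SC-514, at 30 min of IL-1β (0.56) and 15 min of TNF-α (0.44). The first of these calls was lost without the libraries numbered 4 (adjusted p = 0.0572) and the other without those numbered 2, 3 or 4 (up to 0.161). The decrease at 360 min of TNF-α (−0.40, edgeR adjusted p = 0.0272) was lost with DESeq2, with RLE factors and without those numbered 1, 2 or 4 (up to 0.169), and the decrease at 60 min of TNF-α without those numbered 1 (up to 0.154).

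Vegfa did not differ detectably between 100 and 0 µM at 15 and 30 min and was lower from 60 min on, where the IL-1β call at 60 min was lost without the libraries numbered 4 (adjusted p = 0.0558). At 360 min of IL-1β it was at 440.3, 505.5, 483.6 and 432.1 CPM at 0 µM and at 162.6, 251.9, 225.4 and 165.6 CPM at 100 µM. With TNF-α it was at 431.9, 374.7, 551.6 and 467.8 CPM at 0 µM and at 164.4, 163.7, 215.1 and 192.4 CPM at 100 µM. The groups were far apart, and the 100 µM libraries overlapped with the unstimulated range or lay below it. The log2 changes were −1.21 ± 0.13 (edgeR adjusted p = 1.6e-13) and −1.31 ± 0.13 (edgeR adjusted p = 3.24e-16).

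Hk2 and Hif1a, also induced by the cytokines, were higher with SC-514 at 15 min of both cytokines and lower at 360 min of TNF-α. Hk2 was at 130.1, 180.9, 148.9 and 157.4 CPM at 15 min of IL-1β and at 255.3, 254.5, 238.8 and 225.1 CPM with 100 µM, where all libraries were higher (log2 change 0.66 ± 0.11, edgeR adjusted p = 1.25e-06). At 360 min of TNF-α it was at 157.1, 175.3, 174.8 and 184.2 CPM without and at 102.8, 102.3, 152.7 and 116.5 CPM with 100 µM, where all were lower (−0.54 ± 0.12, edgeR adjusted p = 0.000118). Hif1a was at 129.4, 124.0, 108.7 and 118.4 CPM at 15 min of IL-1β and at 168.1, 153.1, 197.2 and 179.5 CPM with 100 µM, with no overlap (0.53 ± 0.11, edgeR adjusted p = 5.71e-05). At 360 min of TNF-α Hif1a was at 133.8, 171.2, 126.2 and 140.3 CPM without and at 105.4, 100.8, 102.5 and 111.7 CPM with 100 µM, all lower (−0.44 ± 0.11, edgeR adjusted p = 0.00114, and 0.0573 without the libraries numbered 2).

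The same times under the other cytokine gave, at 15 min of TNF-α, means of 247.0 against 176.4 CPM for Hk2 (log2 change 0.48, edgeR adjusted p = 0.000424). For Hif1a they were 171.2 against 129.9 CPM (0.39, edgeR adjusted p = 0.00371, and 0.101 without the libraries numbered 4). In both cases the libraries overlapped. With 100 µM neither gene passed at 360 min of IL-1β. Hk2 was there at 194.6 against 164.8 CPM (0.24, edgeR adjusted p = 0.114), and at 25 and 50 µM it was higher (0.40 and 0.34). The call at 25 µM was lost without the libraries numbered 1, 2 or 4 and that at 50 µM without those numbered 1 or 2. Hif1a was at 112.1 against 125.7 CPM (−0.16, edgeR adjusted p = 0.313). At 120 min Hif1a was higher with 100 µM under IL-1β, at 199.8 against 163.0 CPM (0.29, edgeR adjusted p = 0.0267), and lower under TNF-α, at 177.7 against 213.6 CPM (−0.27, edgeR adjusted p = 0.0323). The libraries overlapped in both. The IL-1β call was lost without the libraries numbered 3 or 4 (up to 0.223), and the TNF-α call without those numbered 1 or 3, with RLE factors, with DESeq2 and without a filter (up to 0.412).

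Pfkfb3 was at 26.6, 30.2, 18.5 and 22.9 CPM at 360 min of TNF-α and at 10.7, 13.2, 14.7 and 14.6 CPM with 100 µM, with no overlap (log2 change −0.88 ± 0.23, edgeR adjusted p = 0.00171). With IL-1β it was at 13.3, 13.2, 19.2 and 8.36 CPM without and at 30.4, 21.1, 15.1 and 17.0 CPM with 100 µM, where the groups overlapped and the test was not passed. Ddit4 was higher with SC-514 at 15 min of IL-1β (log2 change 0.69) and at 120 min of TNF-α, where its mean was 72.3 against 41.7 CPM (0.79, edgeR adjusted p = 0.00192).

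Among the other members, Bnip3, a receptor for the removal of mitochondria, was higher at 15 and 120 min of TNF-α (0.63 at each) and lower at 360 min, at a mean of 24.6 against 49.6 CPM (−1.01). Egln3 was higher at 15 min of IL-1β (0.87) and lower in 4 comparisons. These were 120 min of IL-1β, 60 min of TNF-α and 360 min of both cytokines (−0.97 and −0.99 at 360 min). Its lowest log2 change over the 10 comparisons was −1.07. Pfkm was higher in 7 comparisons (0.53 to 0.79), and Pfkp, the platelet phosphofructokinase, lower in 5 (−0.64 to −0.42). Aldoa, an aldolase, Gpi1, glucose phosphate isomerase, and Bnip3l, a relative of Bnip3, were lower at 360 min of IL-1β, by −0.45, −0.28 and −0.28. Bnip3l was higher at 60 min of IL-1β. Eno2, Egln1 and Higd1a, a mitochondrial protein, were lower at 360 min of TNF-α, by −0.80, −0.41 and −0.30. Higd1a was lower in 2 comparisons in all. Mxi1, an antagonist of Myc, was higher at 60 min of TNF-α (0.68). Pdk1, which holds pyruvate back from the mitochondria, passed no SC-514 test at 100 µM and was lower only at 360 min of IL-1β against unstimulated (−0.72).

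By role, at 360 min of 100 against 0 µM, 5 of the 7 genes from triose phosphate to pyruvate were lower with IL-1β and all 7 with TNF-α. Of the 11 hypoxia targets outside glycolysis 5 and 6 were lower, and of the 3 genes for Hif1a and its hydroxylases 1 and 3. Of the 3 genes for glucose entry 1 and 2 were lower, of the 6 for the sugar phosphate steps 2 and 1, and of the 4 for pyruvate and lactate 1 and 2. Slc16a1 with IL-1β was the only member higher in either of these comparisons in edgeR with TMM factors.

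**Figure D3:**
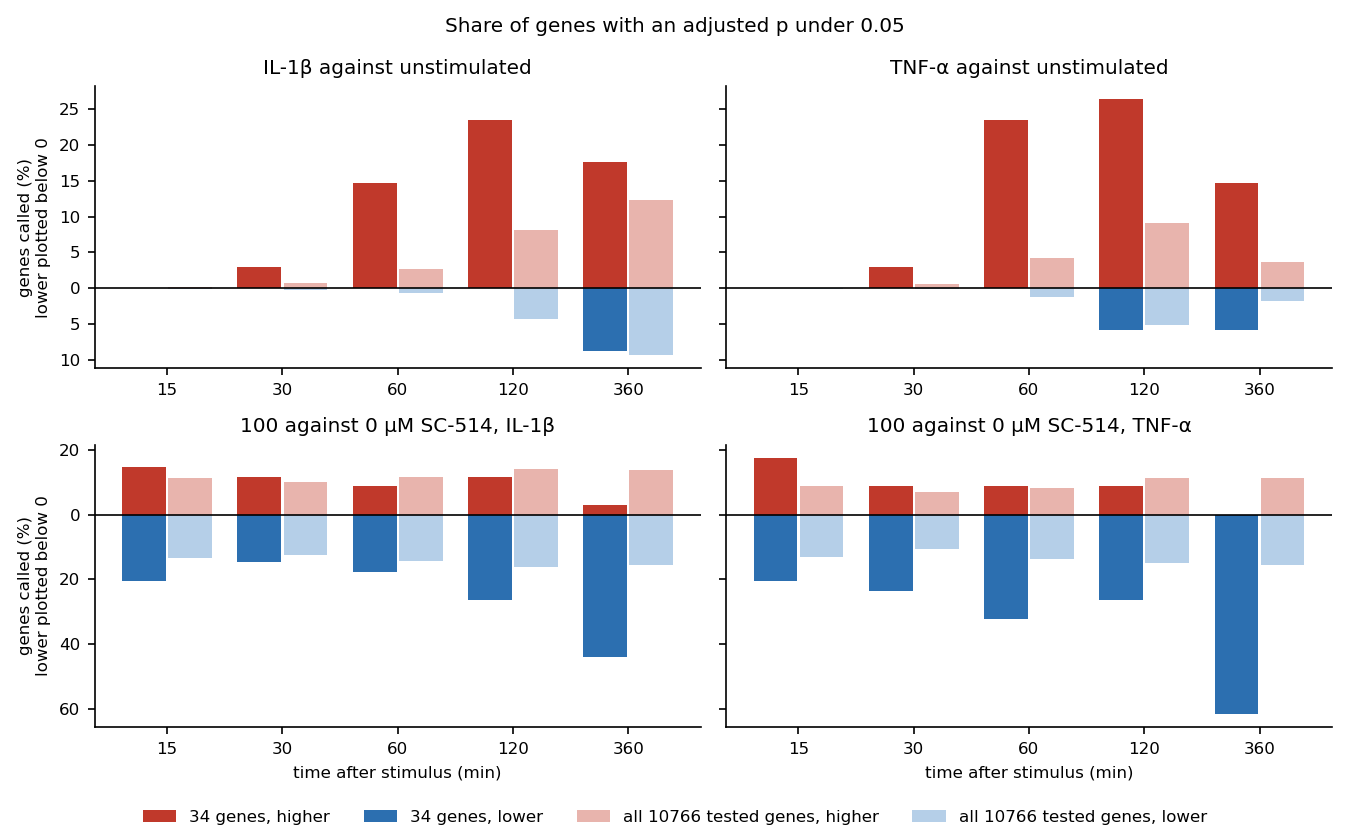
Percentage of genes with an adjusted p under 0.05 at each time, for the 34 genes (dark bars) and all 10766 tested genes (light bars), higher plotted above 0 and lower below it. In the lower panels, 100 against 0 µM SC-514, the dark lower bars at 360 min stand for 15 genes with IL-1β and 21 with TNF-α, beside 15.7% and 15.4% of all genes.

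In counts, with IL-1β 5 members were higher and 7 lower at 15 min (11.2% and 13.5% of all genes), 4 and 5 at 30 min (10% and 12.5%), 3 and 6 at 60 min (11.5% and 14.4%), 4 and 9 at 120 min (14.3% and 16.2%) and 1 and 15 at 360 min (13.9% and 15.7%). With TNF-α 6 were higher and 7 lower at 15 min (8.99% and 13.2% of all genes), 3 and 8 at 30 min (7.12% and 10.8%), 3 and 11 at 60 min (8.32% and 13.6%), 3 and 9 at 120 min (11.5% and 15%) and 0 and 21 at 360 min (11.4% and 15.4%). At an unadjusted p under 0.05 edgeR had 1 member higher at 360 min of TNF-α, and DESeq2 called 1 higher and 16 lower there, and 2 higher and 8 lower at 360 min of IL-1β. The members' counts thus stood furthest from all genes at 360 min, where their median log2 change was −0.24 with IL-1β (0.04 over all genes) and −0.44 with TNF-α (0.02). At 60 min of TNF-α their median was −0.18 (0.01 over all genes). The members' means ran from 4.5 (Adm) to 1491 CPM (Pkm) unstimulated. Small changes are called more easily at high counts, and all genes were not matched to the members by level. Over the 10 comparisons 8 members were called higher in at least 1 and lower in at least 1 other.

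The late decrease was also read with another scaling. RLE factors moved the median of all genes at 360 min by 0.125 with TNF-α, the one shift over 0.1 on the log2 scale in any of these comparisons. The members' own median moved from −0.44 to −0.32 with TNF-α and from −0.24 to −0.15 with IL-1β. Relative to the median of all genes, it was −0.46 with TMM and −0.46 with RLE factors with TNF-α, and −0.27 and −0.28 with IL-1β. Other factors shift all genes of a comparison by about the same amount. This relative value could therefore hardly change and is no check of the decrease. The members' split became 1 higher and 18 lower with TNF-α, where 10.2% of all genes were then lower, and 4 and 10 with IL-1β, where 11.6% were, while the share of higher genes among all calls moved from 42.4% to 68.7% and from 46.9% to 63.6%. At 15, 30, 60 and 120 min of TNF-α the members' split with RLE factors was 7 and 6, 5 and 7, 4 and 9, and 7 and 7, where the share of higher genes among all calls moved from 40.5% to 60.9%, from 39.8% to 50.2%, from 37.9% to 56.4% and from 43.3% to 59.1%. At 15 min of IL-1β the split was 6 and 6, with 45.4% moving to 59.4%, and at 30, 60 and 120 min it was 5 and 4, 5 and 6, and 9 and 9.

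Without the libraries numbered 4 the 13 calls at 15 min of TNF-α became 8, and without those numbered 3 or 4 the 11 calls at 30 min became 7 or 6. The summed fibroblast markers moved with the late decrease, at 8073 CPM without and 5903 CPM with 100 µM at 360 min of TNF-α and at 7374 and 7003 CPM with IL-1β. Over the same groups the summed macrophage and leukocyte markers were at 46.0 and 20.7 CPM and at 45.7 and 23.8 CPM, and the summed endothelial markers at 10.1 and 5.15 CPM and at 7.28 and 8.92 CPM. The part of these markers in the result was not tested.

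**Figure D4:**
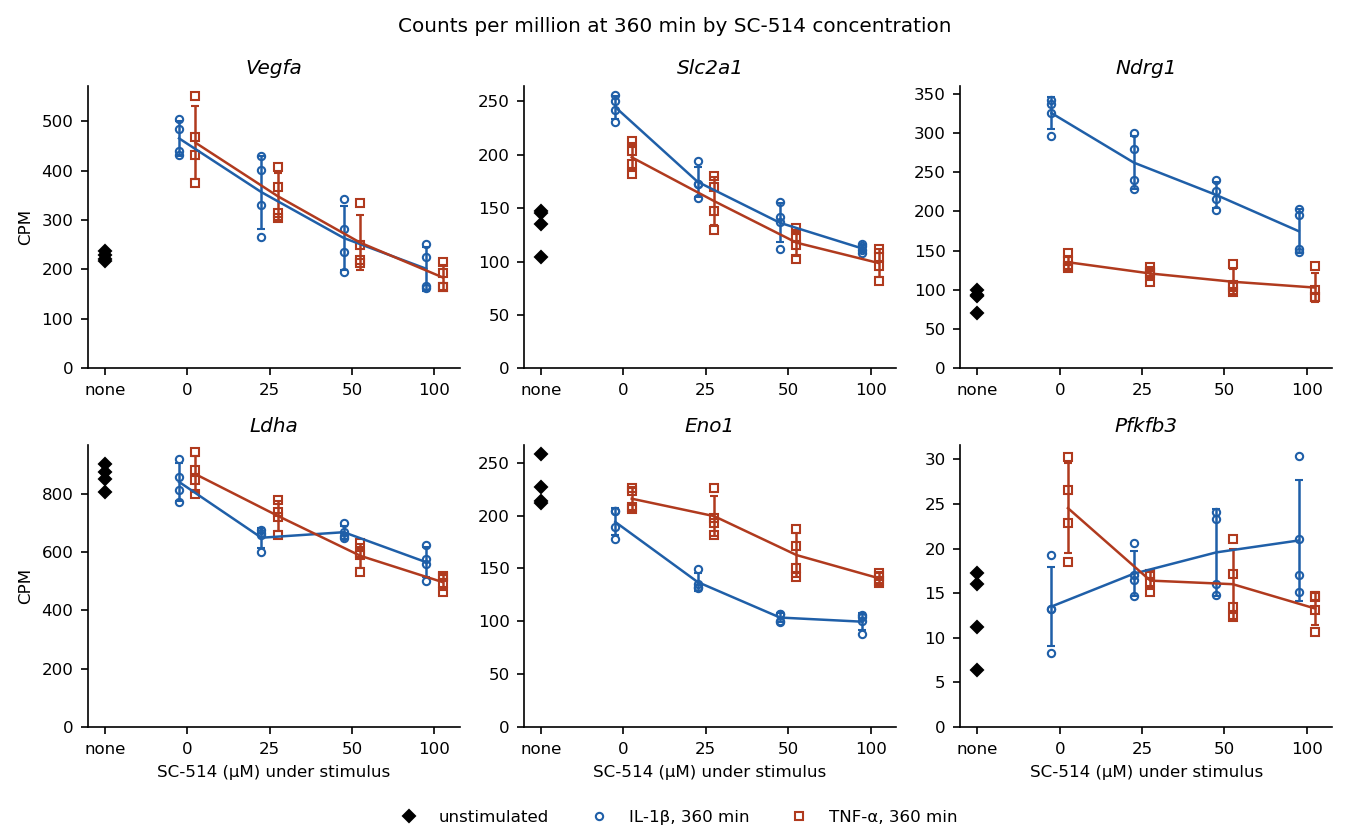
CPM at 360 min against the SC-514 concentration in µM for 6 genes, each point a library, with the mean ± SD of 4 libraries, circles for IL-1β, squares for TNF-α and diamonds for the unstimulated libraries. Vegfa and Slc2a1 step down with each concentration under both cytokines to 100 µM means of 201.4 and 112.2 CPM with IL-1β, and Pfkfb3 moves in different directions under the 2 cytokines.

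Lower concentrations were compared at 360 min, where all 3 concentrations share the 0 µM libraries. Vegfa was at 265.1, 430.3, 400.4 and 330.1 CPM at 25 µM and at 193.9, 343.6, 281.2 and 235.8 CPM at 50 µM with IL-1β, and at 315.1, 304.4, 406.8 and 366.1 CPM and at 213.4, 219.8, 334.3 and 249.2 CPM with TNF-α. The 25 and 50 µM libraries overlapped, as did those at 50 and 100 µM, while the 50 µM libraries lay below all 0 µM libraries under both cytokines. Slc2a1 was at 172.5, 159.9, 172.5 and 193.7 CPM at 25 µM and at 111.5, 155.4, 141.4 and 136.6 CPM at 50 µM with IL-1β, and at means of 156.6 and 117.6 CPM with TNF-α. Every IL-1β library at 25 µM was already below all libraries at 0 µM. Ldha had means of 840.7, 649.2, 668.2 and 565.4 CPM at 0, 25, 50 and 100 µM with IL-1β and of 867.2, 724.0, 587.4 and 497.0 CPM with TNF-α. Eno1 had means of 194.0, 137.2, 103.6 and 99.7 CPM with IL-1β and of 216.0, 199.5, 162.7 and 140.7 CPM with TNF-α.

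The means fell at each step of concentration for 11 of the 34 genes with IL-1β and 19 with TNF-α, where 14.12% and 15.43% of all genes did so. They rose at each step for 2 and 0 members, where 12.02% and 12.39% of all genes did. At 25 µM 2 members were higher and 6 lower with IL-1β (1.86% and 3.9% of all genes), and 0 higher and 3 lower with TNF-α (0.474% and 2.26%). Hk2 and Pfkm were the 2 higher ones, and the 3 lower ones with TNF-α were Ldha, Pgam1 and Pgk1. At 50 µM 2 were higher and 12 lower with IL-1β (5.75% and 8.67% of all), and 0 higher and 13 lower with TNF-α (2.43% and 7.07%).

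These counts were unstable. At 25 µM of IL-1β 5 of the 8 calls were left without the libraries numbered 1, 2 or 4, and at 50 µM 7 of the 14 without those numbered 1. At 25 µM of TNF-α the count of 3 became 1 without those numbered 2 or 4. With RLE factors the splits were 2 and 5 at 25 µM and 2 and 10 at 50 µM with IL-1β, and 0 and 3 and 0 and 10 with TNF-α, and the share of higher genes among all calls moved from 32.3% to 56.9%, from 39.9% to 54.4%, from 17.3% to 34.8% and from 25.6% to 56.5%.

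Over all 5 times together, an F test of 25 against 0 µM was passed by 12 members with IL-1β (28.7% of all genes) and 11 with TNF-α (23.8%), and that of 50 against 0 µM by 20 (40% of all) and 23 (35.9%). The early increase of Hk2 and Hif1a was present at the lowest concentration. At 25 µM and 15 min the log2 change was 0.73 for Hk2 and 0.65 for Hif1a with IL-1β, and 0.56 and 0.49 with TNF-α.

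The third comparison set IL-1β against TNF-α without SC-514, over all 5 times. It was passed by 8 of the 34 members and by 9.56% of all genes. Each p-value below is that of the F test over the 5 times, and differences at single times were not tested. Ndrg1 differed most clearly (edgeR adjusted p = 1.19e-17), with a log2 difference, IL-1β minus TNF-α, of −0.84 at 120 min and 1.27 at 360 min. Slc16a1 was lower with IL-1β by 0.80 at 360 min (edgeR adjusted p = 9.94e-10). Hk2 was lower with IL-1β at 120 min by 0.50 (edgeR adjusted p = 3.94e-08), and Pfkfb3 by 0.90 (edgeR adjusted p = 4.84e-05). Adm was higher with IL-1β at 360 min, by 1.70 (edgeR adjusted p = 2.59e-05). Egln3, Hif1a and Gapdh also passed, with edgeR adjusted p of 0.0091, 0.0127 and 0.0495. The library sets of the cytokines differ, and their part in these differences cannot be told apart.

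The effect of 100 µM SC-514 itself differed between the cytokines for 10 members (4.68% of all genes), by an F test of the interaction over 5 times. Pgam1 had the smallest p (edgeR adjusted p = 2.21e-07), with a log2 effect higher under IL-1β at all 5 times, by 0.26 to 0.36. Pgk1, Gapdh, Hk2, Pfkfb3 and Hif1a likewise had effects that were, on average over the times, higher under IL-1β, as had Ndrg1. For Slc16a1 the effect under IL-1β was lower by 0.36 at 15 min and higher by 0.82 at 360 min. Eno1 (edgeR adjusted p = 0.000529) and Adm (0.0262) had effects that were lower under IL-1β on average. For Eno1 the difference was negative at all 5 times, between −0.52 and −0.27. Without the libraries numbered 3 or 4 the count of 10 was 6.

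Whether the effect of 100 µM SC-514 changed between 15 and 360 min was tested directly, a comparison chosen after the calls at each time had been seen. With IL-1β the effect was lower at 360 min for 8 members and higher for 1 (3.99% and 3.21% of all genes), and with TNF-α lower for 8 and higher for 0 (3.25% and 2.07%). The members' median difference in log2 effect was −0.28 and −0.36. With TNF-α these were Hk2 (−1.02), Hif1a (−0.83), Ndrg1 (−0.83), Vegfa (−1.28), Ldha (−0.42), Gapdh (−0.35), Pkm (−0.28) and Bnip3 (−1.64), and without the libraries numbered 2 there were 5. The Gapdh and Pkm calls were lost without the libraries numbered 2, 3 or 4, with DESeq2 and without a filter (adjusted p up to 0.258 and 0.160), and the Ndrg1 call without those numbered 2 (up to 0.0603). With IL-1β they were Vegfa (−1.07), Ndrg1 (−1.14), Hif1a (−0.70), Egln3 (−1.84), Ddit4 (−1.17), Tpi1 (−0.41), Bnip3l (−0.49) and Ldha (−0.34), and Slc16a1 was the 1 higher (0.81). Ldha was lost without number 1 of IL-1β 100 µM (−0.29, adjusted p = 0.0788), and Ddit4 without the libraries numbered 1 of every group (adjusted p = 0.116). Slc2a1, Eno1 and P4ha2, lower from 15 min on, did not pass this test.

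Genes of neighbouring pathways were counted in lists written from general knowledge. Of 40 other hypoxia-response genes, 38 were in the table and 32 were tested. Without SC-514, 8 of the 32 were higher at 60 min under each cytokine, where 2.74% (IL-1β) and 4.15% (TNF-α) of all genes were. At 360 min 12 were higher and 2 lower with IL-1β (12.3% and 9.4% of all), and 7 higher and 0 lower with TNF-α (3.62% and 1.8%). At 360 min 100 µM SC-514 left 3 higher and 15 lower with IL-1β and 2 higher and 18 lower with TNF-α, where 13.9% and 15.7% of all genes were higher and lower with IL-1β and 11.4% and 15.4% with TNF-α. The median log2 change of the list was then −0.28 and −0.45, close to that of the members. Dusp1, a phosphatase of MAP kinases, was at a mean of 237.7 CPM after 60 min of TNF-α against 25.7 CPM unstimulated, a log2 change of 3.19 ± 0.19 (edgeR adjusted p = 7.01e-32). Bhlhe40, a transcriptional repressor, rose to 184.9 from 47.9 CPM (1.95 ± 0.16) and Errfi1, an inhibitor of EGF receptor signalling, to 329.6 from 97.5 CPM (1.76 ± 0.14) in the same comparison. Igfbp3, which binds insulin-like growth factors, was at 104.2 CPM with 100 µM and 265.4 CPM without at 360 min of TNF-α (−1.35 ± 0.11).

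Of the 12 regulators of the HIF pathway, 10 were tested, and at 360 min of 100 µM SC-514 2 were higher and 2 lower with IL-1β and 0 and 1 with TNF-α, beside the same shares of all genes. Cited2, which competes with HIF-1α for its coactivator, was the 1 lower with TNF-α, at a mean of 87.3 against 218.8 CPM (log2 change −1.33 ± 0.20, edgeR adjusted p = 2.06e-08). Arnt, the partner subunit of HIF-1α, was higher with 100 µM at 120 min of TNF-α (0.96 ± 0.17), as was Hif1an, the asparagine hydroxylase of HIF-1α, at 15 min (0.44 ± 0.13). Siah2, a ubiquitin ligase for the prolyl hydroxylases, was higher after 120 min of IL-1β (1.04 ± 0.18).

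The metabolic lists were counted at 360 min of 100 µM, where again 13.9% of all genes were higher and 15.7% lower with IL-1β and 11.4% and 15.4% with TNF-α. Of 16 tested other glycolysis enzymes and transporters 2 were higher and 4 lower under each cytokine. Of 10 pentose phosphate genes 2 were higher and 1 lower with IL-1β and 1 and 2 with TNF-α, of 15 pyruvate oxidation genes 1 and 2 and 1 and 1, and of 10 tested glycogen genes 3 and 2 and 2 and 2. G6pdx, the first enzyme of the pentose phosphate pathway, was at a mean of 106.5 CPM with and 175.4 CPM without 100 µM at 360 min of IL-1β (log2 change −0.72 ± 0.10, edgeR adjusted p = 1.1e-09), and Rpia, a later enzyme, at 49.4 and 25.4 CPM (0.96 ± 0.18). Pgd, an oxidative enzyme of the same pathway, was higher after 360 min of IL-1β alone (0.57 ± 0.08), and Prps2, which uses its ribose phosphate, with 100 µM at 120 min of IL-1β (0.64 ± 0.14).

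Slc2a6, a sugar transporter of the GLUT family, was at 14.1 against 2.45 CPM after 360 min of IL-1β (log2 change 2.50 ± 0.45). Pfkfb4, a relative of Pfkfb3, was lower with 100 µM at 30 min of IL-1β (−1.40 ± 0.27), and Gpd2, the mitochondrial glycerol phosphate dehydrogenase, at 120 min of TNF-α (−0.79 ± 0.12). Minpp1, a phosphatase, was higher with 100 µM at 360 min of TNF-α (0.56 ± 0.11). In pyruvate oxidation Pdp1, the phosphatase that activates pyruvate dehydrogenase, was higher with 100 µM at 120 min of IL-1β (1.09 ± 0.21), where Dld, a subunit of that complex, was lower (−0.40 ± 0.09). The pyruvate carrier subunits Mpc1 and Mpc2 were higher with 100 µM, Mpc1 at 30 min of TNF-α (0.69 ± 0.15) and Mpc2 at 60 min of IL-1β (0.40 ± 0.10). Among glycogen genes Ugp2 (0.75 ± 0.13) and Gyg (0.95 ± 0.18) were higher with 100 µM at 120 min of IL-1β, and at 360 min of TNF-α Pygb, a glycogen phosphorylase, was higher (0.68 ± 0.14) and Gys1, the glycogen synthase, lower (−0.66 ± 0.11).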

How the data were processed

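The members and the lists of related genes were chosen with earlier results of these data known, and the members by symbol. The deposited table holds whole-number read counts per gene as the authors made them, in 164 columns, 4 for each of 41 groups. The 656 sample records are 4 per column, so the column was the library and the unit of every test. Libraries were grouped by the labels for stimulus, concentration and time. Alignment tools and builds in the submitters' processing notes are Bowtie2 and GRCm38 (mm10). Which tool and annotation were used for counting, and whether with strand, is not given in the sources used. Symbols came from GENCODE M21, through 21878 identifiers that matched, with 192 left unmatched.

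Genes were filtered with filterByExpr by group, scaled with TMM factors (0.934 to 1.08, and 1.45 and 2.44 in the 2 shallow libraries) and fitted in 1 robust quasi-likelihood model over all groups in edgeR 4.0.16 under R 4.3.3, with a biological coefficient of variation of 0.0799 and 123 residual degrees of freedom. Benjamini-Hochberg adjustment of p-values ran over all tested genes within each comparison, at a threshold of 0.05. The script was tested on simulated data. Library values are written out for the 14 members with the smallest adjusted p over the 20 tests of cytokine and 100 µM SC-514, and always for Hif1a, Vegfa, Slc2a1, Ldha and Gapdh. Of each related list at most 4 genes are named, by smallest adjusted p over the same tests. Alternatives were RLE factors, no filter, DESeq2 1.42.0, fits on only the groups of a comparison, a replicate block, and leaving out libraries. Same-numbered libraries had every pairwise correlation above 0.1 in 0 of 24 comparisons and were not treated as paired.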

Additional observations from a re-analysis of the deposited data

Results flagged for a closer look

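In 75 groups of 4 libraries of the members written out, 3 held 1 library that stood apart by Dixon's criterion (gap over range above its critical value for 4 values), where chance gives about 1 in 20. Pgk1 was low in number 3 of TNF-α 0 µM at 360 min (0.856), Pgam1 low in number 1 of IL-1β 100 µM at 360 min (0.885), and Adm high in number 4 of TNF-α 100 µM at 360 min (0.906).

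The course under IL-1β differed from that under TNF-α without SC-514 in F tests over 5 times, with edgeR adjusted p of 1.19e-17 for Ndrg1, 9.94e-10 for Slc16a1, 3.94e-08 for Hk2, 2.59e-05 for Adm, 4.84e-05 for Pfkfb3, 0.0091 for Egln3, 0.0127 for Hif1a and 0.0495 for Gapdh. The effect of 100 µM SC-514 differed between the cytokines with edgeR adjusted p of 2.21e-07 for Pgam1, 4.69e-05 for Slc16a1, 0.000166 for Hk2, 0.000266 for Ndrg1, 0.000529 for Eno1, 0.00344 for Pgk1, 0.00551 for Pfkfb3, 0.00874 for Gapdh, 0.0128 for Hif1a and 0.0262 for Adm.

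The effect of 100 µM SC-514 was lower at 360 than at 15 min. Under IL-1β the log2 difference was −1.84 for Egln3, −1.17 for Ddit4, −1.14 for Ndrg1, −1.07 for Vegfa, −0.70 for Hif1a, −0.49 for Bnip3l, −0.41 for Tpi1 and −0.34 for Ldha, and it was 0.81, that is, higher, for Slc16a1. Under TNF-α it was −1.64 for Bnip3, −1.28 for Vegfa, −1.02 for Hk2, −0.83 for Ndrg1, −0.83 for Hif1a, −0.42 for Ldha, −0.35 for Gapdh and −0.28 for Pkm. The Ldha and Ddit4 calls under IL-1β and the Gapdh, Pkm and Ndrg1 calls under TNF-α were lost in some alternatives, as given above.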

How the results depend on the processing

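Of 163 changes of the members written out, 110 passed the threshold under all 11 alternatives, and none changed direction. RLE factors kept 152, no filter 154, DESeq2 136 of 162, fits on the groups of a comparison 149, and leaving out the 2 shallow libraries 162. Without the libraries numbered 1, 2, 3 or 4 there were 140, 140, 146 and 133. Leaving out number 1 of IL-1β 100 µM at 120 and 360 min lost 4, Pfkfb3 at 120 min (log2 change 0.53, adjusted p = 0.0728) and Adm, Pgk1 and Ldha as given above.

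The counts of changed members stayed within 1.5 times under RLE factors. Under IL-1β at 30 min against unstimulated the count of 1 was 0 with DESeq2 and 2 without a filter or with only the groups compared, and 0 to 1 with 1 library number left out. Under TNF-α at 30 min the count of 1 was 3 without a filter and 2 with only the groups compared, and 1 to 2 with 1 number left out. The 16 members changed by 100 µM at 360 min of IL-1β were 10 with DESeq2 (2 higher and 8 lower) and 11 to 15 with 1 number left out. With 1 number left out the ranges were 4 to 5 for the 7 at 360 min of TNF-α against unstimulated, 8 to 11 for the 13 at 15 min and 6 to 13 for the 11 at 30 min of TNF-α with 100 µM. They were 5 to 7 for the 8 at 25 µM and 7 to 11 for the 14 at 50 µM at 360 min of IL-1β, and 1 to 2 for the 3 at 25 µM of TNF-α, which were 5 without a filter. For the effect at 360 minus 15 min of TNF-α the range was 5 to 8 (8 with all), and in the test of unequal 100 µM effects between cytokines 6 to 9 (10 with all). The cause of these changes was not tested.

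The replicate block, with the library number as a term, kept 163 of the 163 changes. It raised the count at 30 min of TNF-α against unstimulated from 1 to 2 and that at 25 µM and 360 min of TNF-α from 3 to 5. Libraries with the same number had a mean correlation of 0.0396 in their deviations, and those with other numbers −0.0132. Deviations were taken from each group's own mean, which ties the second value to the first, so it is no separate reference. In the 100 µM comparisons of TNF-α the mean for same-numbered libraries lay between 0.0594 (360 min) and 0.112 (120 min). These correlations are low, and whether same-numbered libraries share a weak common part was not tested. DESeq2 and the fits on single groups gave no F tests. Genes with few counts, such as Adm in the unstimulated libraries, carry larger errors at this depth.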
